A study of Mus musculus with 4 samples.

Results

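The MHC class II genes were followed through the mammary epithelium of mouse organoids: H2-Ab1, H2-Aa, H2-Eb1, Cd74, Ciita, H2-DMa and H2-DMb1, which are 7 of the 32285 genes counted. They were taken by name, whatever their level, but with earlier results of these data known. The cells came from organoids, 3-dimensional cultures grown from mammary epithelial cells, and their RNA was counted cell by cell in 4 libraries, 1 for each combination of genotype and treatment. The genotypes were wild type and Brca2mut/WT, which carries 1 truncated germline allele of the DNA repair gene Brca2, and the treatments were no drug (control) or hydroxyurea (HU), which stalls DNA replication. All 4 groups share the organoid culture of epithelial cells. The study describes this culture at an oxygen level below that of air. Frozen organoids were thawed and cultured for 3 days before sequencing. The labels give 2 replicates in each library and no way to assign cells to them. The age of the mice and the passage of the organoids are not given there. The study describes sequencing at an early and a late passage, with HU repeated over passages, and organoids from 3 mice for each condition. Which passages a library holds, and thus how many HU exposures, is not known here.

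MHC class II molecules are dimers of an alpha and a beta chain that display peptides from endosomes to CD4+ T cells. H2-Aa and H2-Ab1 encode the chains of the I-A molecule, and H2-Eb1 encodes the beta chain of I-E. The invariant chain, Cd74, escorts new dimers and plugs their groove, and the H2-DM heterodimer, made from H2-DMa and H2-DMb1, exchanges the remaining invariant chain fragment for peptide. Ciita is the co-activator that is recruited to the X and Y boxes of class II promoters and usually sets the level of all of these genes together. Class II is best known in dendritic cells, macrophages and B cells, and epithelial cells can acquire it under interferon gamma.

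The upstream sequences of 3 members are shown to mark letters of the X and Y boxes, through which this family is normally switched on as a group. The letters come from RefSeq (GRCm38.p6), in which 4 of the 7 members had an entry: H2-Aa, H2-Eb1, H2-DMa and H2-DMb1. Each window runs from base -140 to base -41 before the annotated start, read 5′ to 3′ on the strand of the gene, and capitals mark ACNGATG (the end of the X box) and GATTGG (the core of the Y box).
H2-DMb1: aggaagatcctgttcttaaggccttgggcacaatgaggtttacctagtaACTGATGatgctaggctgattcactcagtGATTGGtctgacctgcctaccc
H2-Eb1: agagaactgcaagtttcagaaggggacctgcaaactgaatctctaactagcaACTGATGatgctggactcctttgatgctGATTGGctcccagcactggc
H2-Aa: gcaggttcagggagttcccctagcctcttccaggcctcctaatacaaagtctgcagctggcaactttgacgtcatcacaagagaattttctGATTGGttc
The RefSeq start of H2-DMb1 is 119 bases downstream of the GENCODE gene start given below, so part of its window lies inside the gene by that annotation, while the starts of H2-Eb1 and H2-Aa are the same in both. The windows lie at chr17:34153051-34153150 (plus strand) for H2-DMb1, chr17:34305727-34305826 (plus strand) for H2-Eb1 and chr17:34287864-34287963 (minus strand) for H2-Aa. H2-DMb1 and H2-Eb1 had both elements in the same order, at bases -91 and -62 and at bases -88 and -60. H2-Aa had the Y box core at base -49, and its only ACNGATG was on the opposite strand at base -232. H2-DMa, which is not shown, had GATTGG at base -199 and no match of ACNGATG. Only these exact letters were searched, so a missing match does not mean that H2-Aa or H2-DMa lacks an X box. Of the 32851 promoters in the table, 8.31% held ACNGATG, 14.6% held GATTGG and 1.18% held both in the 250 bases upstream, either strand counted. The longer Y box CTGATTGG, which contains the core, was in 3.83% of promoters, and in those of H2-Eb1 and H2-Aa but not of H2-DMb1 or H2-DMa. The matches are a description of letters and not of binding.

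The genes other than Cd74 lie on chromosome 17, apart from Ciita on chromosome 16 (GENCODE vM21, GRCm38). H2-Ab1 spans chr17:34257689-34269419 and H2-DMb1 spans chr17:34153072-34160230, both on the plus strand and with no overlapping annotated gene. H2-Aa spans chr17:34282744-34287823 on the minus strand. H2-Eb1 (chr17:34305867-34316674), H2-DMa (chr17:34119541-34139101) and Ciita (chr16:10480059-10528418), all on the plus strand, overlap other annotated genes: antisense Gm20513, Brd2 with some noncoding genes, and Dexi. Among the last 400 bases of their transcripts, where this chemistry reads, no 60-base stretch of H2-Ab1, H2-Aa, H2-Eb1 or Cd74 occurred in a transcript of another gene. H2-DMb1 shared 143 of 811 stretches with its paralog H2-DMb2, H2-DMa shared 111 of 1475 with Brd2, and Ciita shared 37 of 2046 with Dexi.

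The filter of the study, 1000 to 6000 detected genes and under 5% mitochondrial UMIs (unique molecular identifiers, 1 per captured RNA molecule), kept 17360 of 33268 cells, with 82186830 to 126866429 UMIs and a median of 24180 to 26890 UMIs a cell in each library. These are far fewer cells than the study states it retained under this filter, and the matrices used here hold fewer than that number before any filter. Of 33139 distinct cell barcodes, 129 occurred in 2 or more libraries. Cells were placed by 2 genes: basal at 500 CPM (the UMIs of a gene over all UMIs of the cell or group, scaled to the same total) of the basal keratin Krt14 or more, hormone receptor positive (HR+) luminal at 300 CPM of Areg or more, and hormone receptor negative (HR-) luminal under 300 CPM of both. This gave 14008 HR- luminal, 2217 basal and 569 HR+ luminal cells, while 109 cells passed both cuts and 457 fell between them. Most markers followed the labels: all 8 basal markers, Krt14 included, were highest in basal cells in every library. So were 6 of 7 HR+ markers, Areg included, in HR+ cells and 6 of 7 HR- markers in HR- cells. Krt14 and Areg were used to place the cells, so their own results were fixed in advance and do not count for the labels. Aldh1a3 was highest in HR- cells in 0 libraries.

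The defining markers of leukocytes, the usual source of class II RNA, were at or near 0. No kept cell had a UMI of Ptprc (CD45), so every value for kept cells below is for cells without one. The group with one was empty: 0 of 17360 cells. Over all deposited cells Ptprc had 2 UMIs, in 2 cells of wild-type HU that the filter removed. Those cells had 9 and 11 UMIs of the luminal keratin Krt8 and 2 and 0 UMIs of H2-Ab1, with none of the other 6 members. Of the 8 leukocyte markers Ptprc and Tyrobp were at 0, and the list summed to 0.543 to 0.951 CPM a library. Adgre1, C1qa and C1qb of macrophages, Cd3d of T cells, and Clec9a and Cd209a of dendritic cells were at 0 as well. The 4 B cell markers summed to 0.0614 to 0.110 CPM, the 6 dendritic cell markers to 0.0365 to 0.113 CPM, the 6 macrophage markers to 2.12 to 3.28 CPM (mostly Cd68) and the 4 T cell markers to 3.43 to 8.49 CPM (nearly all Trbc2). Epithelial markers (Epcam, Krt8, Krt18 and Cdh1) summed to 4453 to 5009 CPM. Endothelial markers summed to 0.628 to 1.08 CPM, and fibroblast markers, nearly all Dcn, to 36.2 to 60.6 CPM.

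The class II genes were counted at very unequal levels. H2-Ab1 gave 24736 UMIs in the kept cells and H2-DMb1 gave 12545, which made up 63.8% and 32.4% of the UMIs of the 7 members. H2-DMa gave 1133 UMIs. Ciita gave 158, H2-Eb1 126, Cd74 65 and H2-Aa 2. The I-A beta chain was thus counted in 7851 cells and the alpha chain it pairs with in 2 cells. In HR- luminal cells H2-Ab1 stood at 45.5 to 76.9 CPM, H2-DMb1 at 28.9 to 35.5 CPM and H2-DMa at 2.65 to 2.70 CPM, while Ciita stayed at 0.280 to 0.535 CPM, H2-Eb1 at 0.116 to 0.211 CPM, Cd74 at 0.0582 to 0.141 CPM and H2-Aa at or under 0.0117 CPM. Reads were counted near the 3′ end of transcripts, so these levels do not scale with gene length.

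**Figure D1:**
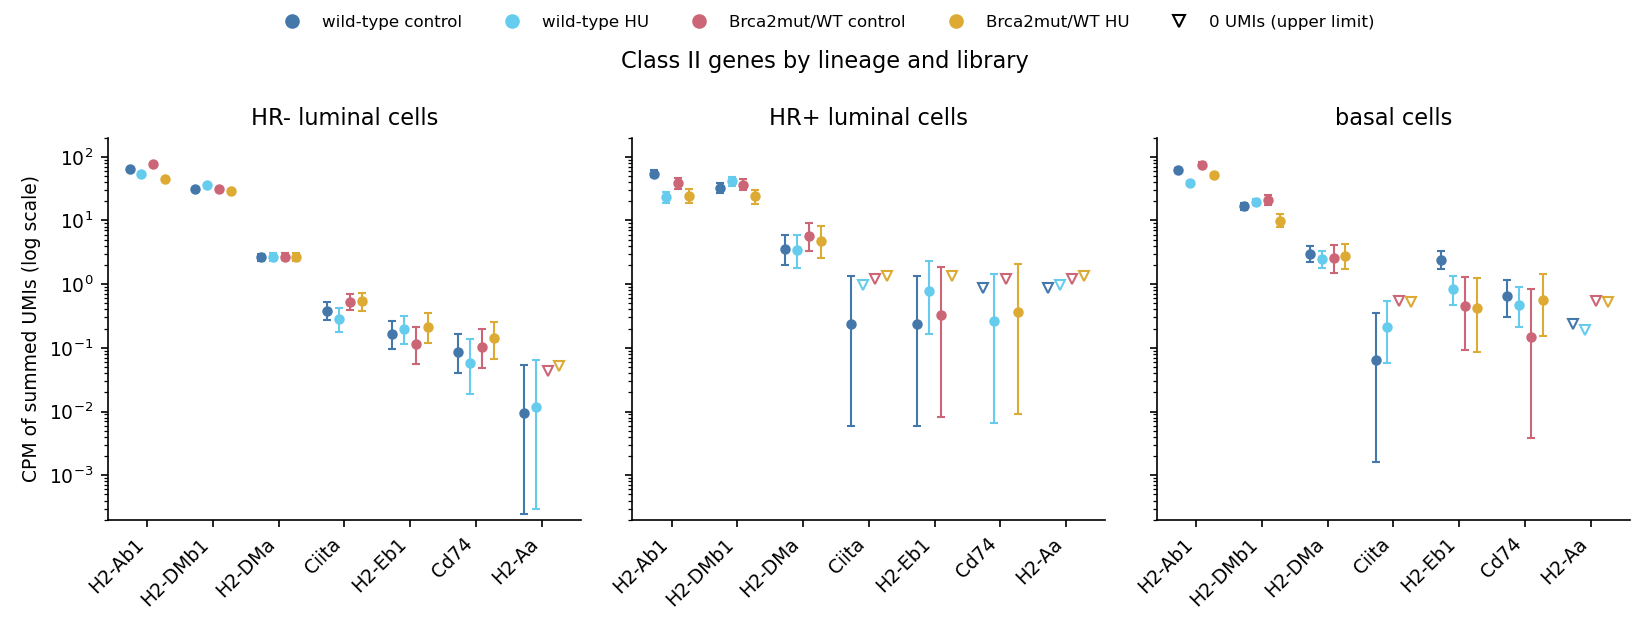
CPM of summed UMIs (log scale) for the 7 genes in HR- luminal, HR+ luminal and basal cells, 1 point for each of the 4 libraries. Bars are exact Poisson 95% intervals for counting error only, and open triangles are the upper limits of libraries with 0 UMIs; H2-Ab1 and H2-DMb1 sit far above the other 5 genes in all 3 lineages.

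H2-Ab1 in HR- luminal cells was 64.1 CPM in wild-type control (95% Poisson interval 62.6 to 65.7), 54.1 CPM in wild-type HU (52.5 to 55.6), 76.9 CPM in Brca2mut/WT control (75.0 to 78.7) and 45.5 CPM in Brca2mut/WT HU (43.9 to 47.1). The 4 intervals were all separate, with both HU libraries under both controls. Such intervals, and those of shares of cells, cover counting error only: with 1 library a group no test between conditions was made.

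H2-DMb1, the beta chain of the peptide exchanger, varied less, at 31.4 CPM in wild-type control (30.3 to 32.5), 35.5 CPM in wild-type HU (34.2 to 36.7), 31.3 CPM in Brca2mut/WT control (30.2 to 32.5) and 28.9 CPM in Brca2mut/WT HU (27.6 to 30.2). The controls overlapped, wild-type HU lay above them, and Brca2mut/WT HU lay just below them. H2-DMa, its partner chain, was at 2.65, 2.68, 2.70 and 2.70 CPM in the same order, with intervals that all overlapped.

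In Brca2mut/WT HU no member was higher by 1.5-fold or more than in any of the other libraries, among genes with at least 5 CPM in 1 of the 2 libraries, a filter passed by H2-Ab1 and H2-DMb1 only. Against wild-type control 0 of these 2 members were higher and 0 lower, where 0.986% of all genes so filtered were higher and 1.18% lower. Against wild-type HU the counts were again 0 and 0, with 0.729% of genes higher and 0.465% lower. Against Brca2mut/WT control 0 were higher and 1, H2-Ab1, was lower, with 0.607% of genes higher and 1.1% lower. The H2-Ab1 log2 ratio of Brca2mut/WT HU was -0.76 (-0.82 to -0.70) over Brca2mut/WT control, -0.50 (-0.56 to -0.43) over wild-type control and -0.25 (-0.31 to -0.18) over wild-type HU. The same library is in all 3 ratios. These ratios leaned on single tag pools, which are described further on: over wild-type control the value was -0.28 without pool 1, -0.34 without pool 2 and -0.79 without pool 3, and over wild-type HU it was -0.13 without pool 3. In pool 4 alone the ratio was 0.18 over wild-type control (14.2 against 12.5 CPM) and 1.18 over wild-type HU (14.2 against 6.29 CPM). Both signs were opposite to those of the library ratios, but the wild-type control interval of 10.6 to 14.7 CPM held 14.2 CPM. The same pool number need not mean the same source in 2 libraries. Wild-type HU over wild-type control had a ratio of -0.25 (-0.30 to -0.19), and Brca2mut/WT control over wild-type control 0.26 (0.21 to 0.31).

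Ciita, the co-activator, had 40, 24, 46 and 38 UMIs in the HR- luminal cells of wild-type control, wild-type HU, Brca2mut/WT control and Brca2mut/WT HU. Its log2 ratio of Brca2mut/WT HU over wild-type HU was 0.94 (0.16 to 1.74), but 18 of the 38 UMIs came from tag pool 2, and without pool 2 it was 0.42 (-0.59 to 1.44), without pool 3 1.59 (0.63 to 2.64) and without pool 4 0.76 (-0.03 to 1.58). Over the controls its intervals included 0. H2-Eb1 had 10 to 17 UMIs a library and Cd74 5 to 10, and every interval of their ratios included 0. H2-Aa had 1, 1, 0 and 0 UMIs, where a count of 0 allows up to 0.0347 CPM in Brca2mut/WT control and 0.0422 CPM in Brca2mut/WT HU (3 UMIs a library). Differences in these 4 genes below that precision were not detectable at this depth.

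The 3 lineages ranked differently for the different members when all cells of a library were summed. In basal cells H2-Ab1 was at 62.1, 39.2, 74.7 and 51.1 CPM in wild-type control, wild-type HU, Brca2mut/WT control and Brca2mut/WT HU, and its interval was separate from that of HR- luminal cells only in wild-type HU. In HR+ luminal cells it was at 54.3, 23.1, 38.3 and 24.2 CPM, under HR- luminal cells with separate intervals in all 4 libraries. H2-DMb1 was at 16.8, 19.7, 21.0 and 9.97 CPM in basal cells, under HR- luminal cells in all 4 libraries, and at 32.2, 41.2, 36.6 and 23.8 CPM in HR+ luminal cells, where the intervals overlapped those of HR- luminal cells. H2-DMa was at 2.46 to 3.01 CPM in basal cells and 3.41 to 5.61 CPM in HR+ luminal cells, where its interval was above that of HR- luminal cells in Brca2mut/WT control. The sum of all members but Ciita was higher in HR- luminal than in basal cells with separate intervals in 4 of 4 libraries, by 1.13 to 1.48-fold, but in 1 of 4 when the cells of tag pool 1 were left out. Of the 2 members that passed the filter of 5 CPM, 0 were 1.5-fold higher or lower in all 4 libraries in HR- luminal against basal cells, where 11.3% of genes were higher and 15.2% lower, nor against HR+ luminal cells, where the shares were 12.3% and 19.3%. H2-DMb1 missed the rule against basal cells narrowly and only in Brca2mut/WT control (1.49-fold). It was 1.87-fold higher in wild-type control, 1.80-fold in wild-type HU and 2.90-fold in Brca2mut/WT HU.

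H2-Eb1 and Cd74 were scarce everywhere, and in both wild-type libraries their CPM was higher in basal than in HR- luminal cells, on few UMIs and unevenly over tag pools (groups of cells by antibody tag, described below). H2-Eb1, the I-E beta chain, reached 2.44 CPM (1.73 to 3.35) in basal cells of wild-type control, from 38 UMIs in 29 of 709 cells, against 0.164 CPM (0.0954 to 0.262) in HR- luminal cells. Of these UMIs 29 came from tag pool 4, and without it the value was 1.11 CPM (0.509 to 2.11), still separate. In wild-type HU it was 0.836 CPM in basal against 0.198 CPM in HR- luminal cells, with separate intervals that overlapped when tag pool 2 or tag pool 4 was left out (both 0.560 CPM in basal cells). The basal cells of Brca2mut/WT control and Brca2mut/WT HU had 3 UMIs each, with intervals that overlapped those of HR- luminal cells. Cd74 had 0.641, 0.470, 0.149 and 0.561 CPM in basal cells, separate from HR- luminal cells in both wild-type libraries. In wild-type control these were 10 UMIs in 5 cells, with 6 in 1 cell and 9 in tag pool 4: the intervals overlapped without that cell (0.257 CPM) and without that pool (0.124 CPM). In wild-type HU they were 9 UMIs, and the intervals overlapped without tag pool 1 (0.294 CPM) or tag pool 3 (0.397 CPM). Only 6 of 17360 kept cells had 3 or more UMIs over H2-Aa, H2-Eb1 and Cd74 together.

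Antibody tags divided each library into 4 pools of cells, and H2-Ab1 differed between pools by more than between libraries. The tags have no key in the sources used here, so a pool is not assigned to a mouse, replicate or passage, and the same number need not mean the same source in 2 libraries. A cell was put in a pool when 1 tag held at least 80% of its tag UMIs and these were at least 10. This left 2548 of the 17360 kept cells in no pool. In HR- luminal cells of pools 1, 2, 3 and 4, H2-Ab1 was at 87.0, 20.6, 62.3 and 12.5 CPM in wild-type control. The values were 71.9, 12.1, 74.6 and 6.29 CPM in wild-type HU. They were 88.0, 66.6, 101.5 and 22.9 CPM in Brca2mut/WT control and 53.8, 3.23, 59.9 and 14.2 CPM in Brca2mut/WT HU. Pools 1 and 3 were thus the higher ones everywhere, with pool 2 of Brca2mut/WT control as a further high one. H2-Ab1 was at least 1.5-fold higher in each of pools 1 and 3 than in each of pools 2 and 4 in 3 libraries, which held for 1.53% of the genes tested. From the lowest to the highest of the 16 pools H2-Ab1 changed 31.4-fold and H2-DMb1 1.48-fold.

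**Figure D2:**
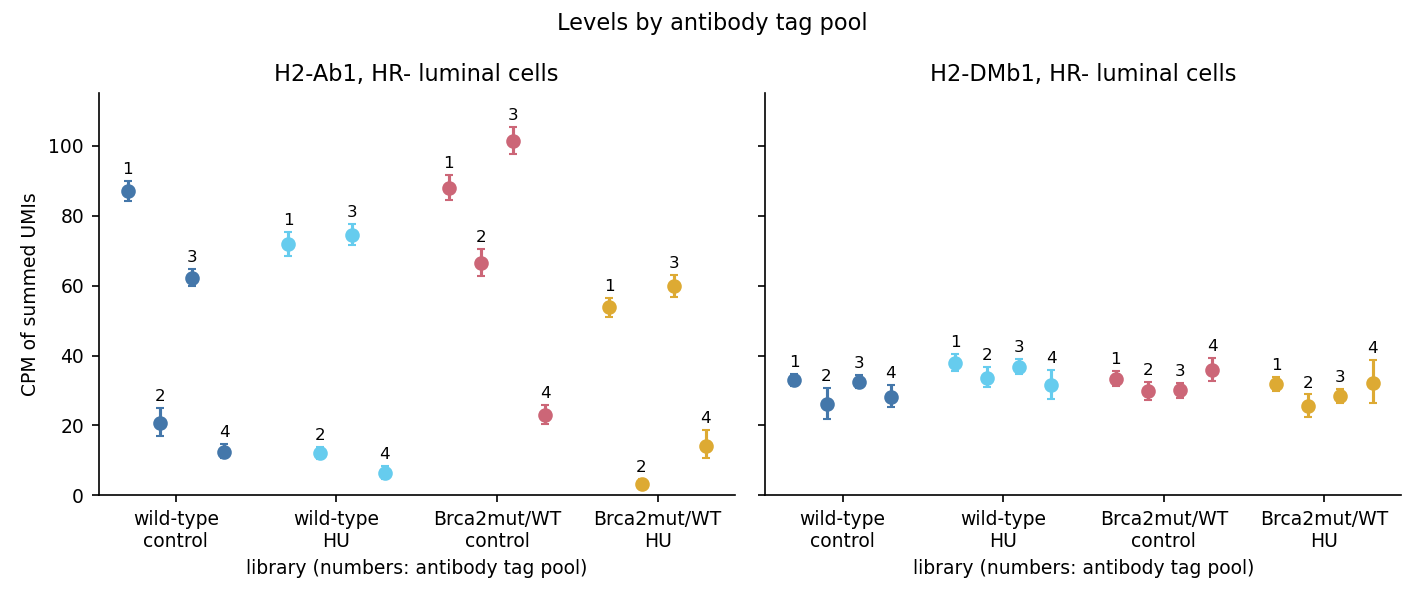
CPM of H2-Ab1 and H2-DMb1 in HR- luminal cells of each antibody tag pool (numbers 1 to 4) in the 4 libraries, with exact Poisson 95% intervals. H2-Ab1 runs from 3.23 to 101.5 CPM and is highest in pools 1 and 3, while H2-DMb1 stays between 25.6 and 37.9 CPM.

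The share of HR- luminal cells with an H2-Ab1 UMI differed between the pools of a library as well. After thinning each cell to 5000 UMIs, 1.87% of the HR- luminal cells in pool 2 of Brca2mut/WT HU had an H2-Ab1 UMI, against 17.7% in pool 1 and 20.9% in pool 3 of that library. Their median depths before thinning were 28660, 28720 and 29020 UMIs. Depths were less alike elsewhere, at 24700, 29040, 24050 and 30240 UMIs in pools 1, 2, 3 and 4 of wild-type control. They were 23930, 29510, 23780 and 29680 UMIs in wild-type HU and 25070, 26680, 25280 and 30200 UMIs in Brca2mut/WT control. In the other 3 libraries pools 1 and 3 had 23.5% to 33.0%, and pools 2 and 4 had 2.81% to 10.99% apart from pool 2 of Brca2mut/WT control with 24.2%. Whole libraries stood at 22.4%, 18.8%, 25.7% and 15.5% of HR- luminal cells in the order wild-type control, wild-type HU, Brca2mut/WT control and Brca2mut/WT HU, and at 24.2%, 17.1%, 26.7% and 25% of basal cells. H2-DMb1 was counted in 9.09% to 18.4% of thinned HR- luminal cells across all 16 pools.

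Compared within pools, the order of the lineages changed. Pools 1 and 3 held 64.5% to 84.9% of the HR- luminal cells with 1 tag but 8.79% to 20.6% of the HR+ luminal cells, and 38.2%, 30.7%, 60.7% and 73.4% of the basal cells of wild-type control, wild-type HU, Brca2mut/WT control and Brca2mut/WT HU. In pools 1 and 3 basal and HR- luminal cells had H2-Ab1 intervals that overlapped in 7 of 8 comparisons and basal cells were higher in 1, with basal over HR- luminal ratios of 0.893 to 1.30. In pools 2 and 4 basal cells were higher in 6 of 6, by 2.04 to 4.59-fold, for example 57.6 against 12.5 CPM in pool 4 of wild-type control. Against HR+ luminal cells, HR- luminal cells were higher with separate intervals in 0 of 7 comparisons: in pools 2 and 4 they were lower in 3 of 6 and overlapped in 3, and in pools 1 and 3 only pool 1 of wild-type control held enough HR+ luminal cells, 11, and overlapped. The excess of H2-Ab1 in HR- over HR+ luminal cells in the library sums was thus not seen with separate intervals within these pools. HR- luminal cells had the higher value in pool 1 of wild-type control (87.0 against 55.6 CPM) and pool 4 of wild-type HU (6.29 against 4.60 CPM). HR+ luminal cells had the higher value in the other comparisons. With so few HR+ luminal cells a pool, overlap does not show that the excess was absent. The library sums also hold cells without 1 dominant tag, which these comparisons leave out. In the order of libraries above, 92, 100, 91 and 65 of the 176, 146, 124 and 123 HR+ luminal cells had 1 tag. For HR- luminal cells these were 3801, 3162, 3139 and 2388 of 4209, 3457, 3592 and 2750. The sum of all members but Ciita was higher in HR- luminal than in basal cells in 4 of 8 comparisons in pools 1 and 3, and lower in 4 of 6 in pools 2 and 4. H2-DMb1 kept its direction, with HR- luminal above basal cells in 8 of 8 comparisons in pools 1 and 3 and 4 of 6 in pools 2 and 4, the other 2 overlapping.

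H2-Ab1 was uneven from cell to cell as well. In HR- luminal cells 49.2% to 64.3% of the cells of a library had none, while 1.93% to 3.98% had 10 or more UMIs and the highest cell had 41. The 10% of cells with the most held 51.1% to 63.7% of the H2-Ab1 UMIs of a library. After thinning, the variance of H2-Ab1 was 1.74 to 2.13 times its mean, where independent counting at 1 common level gives a ratio near 1. That of H2-DMb1 was 1.05 to 1.13 times its mean, and no HR- luminal cell had 10 or more of its UMIs.

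No HR- luminal cell had 2 class II chains under the rule used, a UMI on at least 2 of H2-Ab1, H2-Aa and H2-Eb1 after thinning to 5000 UMIs. The count was 0 of 13276 cells, a rule that at this depth could hardly see H2-Aa and H2-Eb1, and of 2040 basal cells treated in the same way 1 was positive, 0.0490%. Without thinning, 22 of the 13276 HR- luminal cells (0.166%) and 22 of the 2040 basal cells (1.08%) had 2 of the 3. The genes of cells with H2-Ab1 RNA were therefore described from H2-Ab1 alone, a choice made after the data were seen.

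Several of the genes that differed most between HR- luminal cells with and without an H2-Ab1 UMI are known to be induced by low oxygen. Cells with and without a UMI after thinning were compared within each of the 9 pools that had at least 100 with one, and log2 differences of CPM (pseudocount 1 CPM) were averaged over these pools. Over all their UMIs, the cells without one still had 33.0 CPM of H2-Ab1, against 206.5 CPM in cells with one. The group without is thus lower in H2-Ab1 and not free of it. The 10 genes with the highest averages at 20 CPM or more were Espn (1.87), Mgarp (1.64), Gsg1l (1.58), Ndufa4l2 (1.46), Rgcc (1.46), Ndrg1 (1.40), 2610528A11Rik (1.39), Apln (1.35), Slc16a3 (1.32) and Ces1d (1.24). Espn bundles actin, Apln is a secreted peptide of blood vessel growth, Slc16a3 exports lactate, and Ndufa4l2 and Ndrg1 are known to be induced by low oxygen. Ndufa4l2 was higher in 8 of the 9 pools and the other 9 genes in all of them. A list of 23 hypoxia and glycolysis genes was chosen after this pattern was seen in the same cells, so its values only describe the pattern and are no independent support for it. It had a median difference of 0.73, against -0.01 over all genes tested. Of the 23, 15 were higher by 1.5-fold on average and higher in every pool and 0 were lower. Over all genes tested 1.02% were higher and 0.211% lower, and nothing is read from that contrast because of how the list was chosen. Vegfa, the vessel growth factor, was at 166 CPM with and 81.4 CPM without (log2 difference 1.04), Egln1, the oxygen-sensing hydroxylase, at 364 and 174 CPM (1.04), and the carbonic anhydrase Car9 at 393 and 216 CPM (0.87). Glycolytic Ldha (0.39) and Aldoa (0.14) differed least with P4ha1 (0.20). Median depths were 21970 to 27840 UMIs in cells with a UMI and 24240 to 29850 in cells without, lower in the former in all 9 pools.

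**Figure D3:**
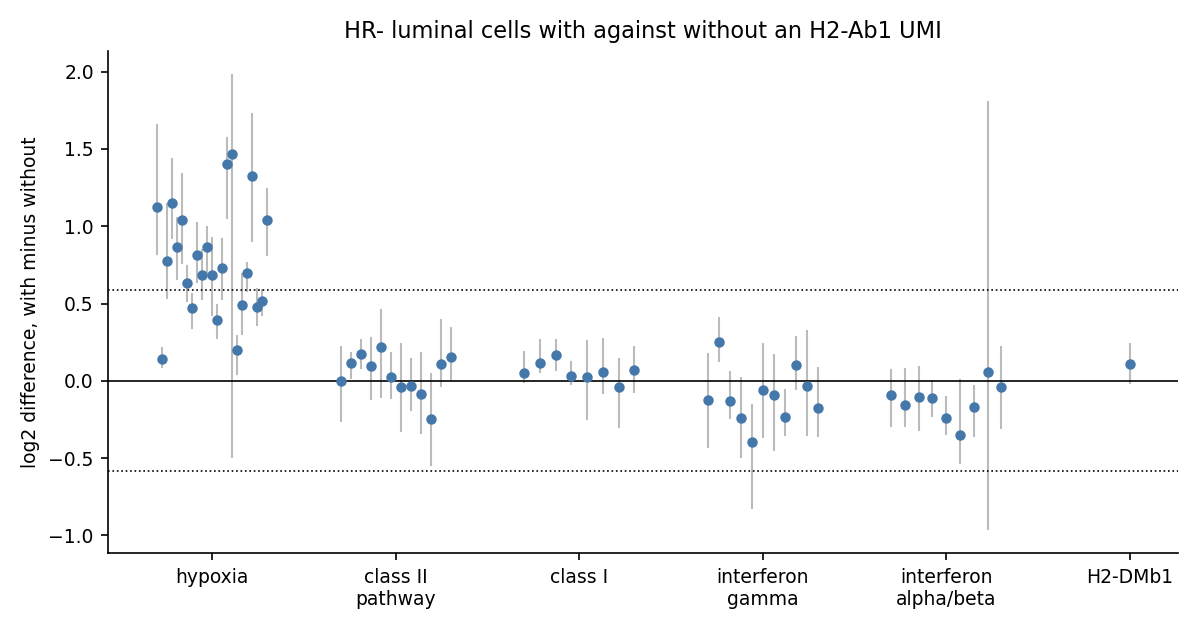
Mean log2 difference of CPM (HR- luminal cells with minus those without an H2-Ab1 UMI) over 9 tag pools for each gene with at least 5 CPM, by gene list; bars run from the lowest to the highest pool and dotted lines mark 1.5-fold. The hypoxia list, chosen after the pattern was seen, has a median of 0.73, and the others have medians of -0.12 to 0.11.

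Genes of the class II pathway differed by less than 1.5-fold with H2-Ab1. H2-DMb1 differed by 0.11 between cells with and without an H2-Ab1 UMI (range over pools -0.02 to 0.24, higher in 8 of 9), at 34.6 and 32.0 CPM. Of the 24 other pathway genes found, 12 reached 5 CPM, and 0 were higher and 0 lower by the same rule, near the 1.02% and 0.211% of all genes, with a median of 0.06. These include the promoter-binding factors Rfx5 (-0.25), Rfxap (0.15) and Rfxank (0.11), the proteases Ctsl (0.17) and Ctsb (0.11) and the reductase Ifi30 (0.10), of which Rfxap, Ctsl and Ctsb were higher in 9 of 9 pools. Among 11 interferon gamma genes 0 were higher and 0 lower, with a median of -0.12, from Iigp1 (-0.39) to the receptor chain Ifngr1 (0.25). Iigp1 and Jak1 (-0.23) were lower in 9 of 9 pools and Ifngr1 was higher in 9 of 9. Among 9 interferon alpha and beta genes the median was -0.11 with 0 called. Isg15 (-0.24) and Oasl2 (-0.17) were lower in 9 of 9 pools, and none was higher in all. Among 8 class I genes the median was 0.06 with 0 called. H2-K1 (0.16) and H2-D1 (0.12) were higher in 9 of 9 pools, and none was lower in all. Of 7 basal markers tested 1 was higher, the filament protein Vim (0.89).

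At the lower end were Ceacam10 (-1.11), Cdkn2a (-0.87), Thrsp (-0.76), Atp6v1c2 (-0.70), Cxcl12 (-0.69), Gfra4 (-0.67), Cited4 (-0.66), Kcne3 (-0.63), Schip1 (-0.62) and Psrc1 (-0.60), each lower in 9 of 9 pools. Cdkn2a encodes inhibitors of the cell cycle, Thrsp acts in lipid synthesis and Cxcl12 is a chemokine. A list of 10 genes of G2 and mitosis, also chosen after the data were seen, had a median of -0.15 with 0 called.

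In basal cells the same comparison was made over 10 pools with at least 20 positive cells. The 23 hypoxia genes had a median of 0.49, against -0.06 over all genes. Of the 23, 3 were higher in every pool and by 1.5-fold on average. The share over all genes is not given for basal cells, so nothing is read from this count. Per pool the number of positive basal cells was 22 to 60, so these averages are less precise than in HR- luminal cells.

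The same relation was described across the range of the summed hypoxia list, again in the cells on which the list was chosen, so that the values are no separate finding. The HR- luminal cells of all libraries were placed in quintiles of their CPM over the 23 genes. From the lowest to the highest quintile H2-Ab1 went from 16.9 to 187.6 CPM in wild-type control, from 10.7 to 202.5 CPM in wild-type HU, from 16.3 to 181.0 CPM in Brca2mut/WT control and from 10.97 to 156.4 CPM in Brca2mut/WT HU. These are ratios of 11.1, 18.9, 11.1 and 14.3. H2-DMb1 went from 28.5 to 35.0, 30.7 to 40.1, 30.4 to 32.3 and 26.7 to 33.2 CPM, ratios of 1.06 to 1.31. The lowest quintile of pools 1 and 3 had 13.3 to 21.0 CPM of H2-Ab1 and the highest 172.0 to 213.5 CPM. In pools 2 and 4 the values were 4.79 to 10.6 CPM and 26.0 to 132.2 CPM, lower than in pools 1 and 3 in each library at both ends of the list. The highest quintile of pools 2 and 4 held 34, 18, 343 and 27 cells.

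**Figure D4:**
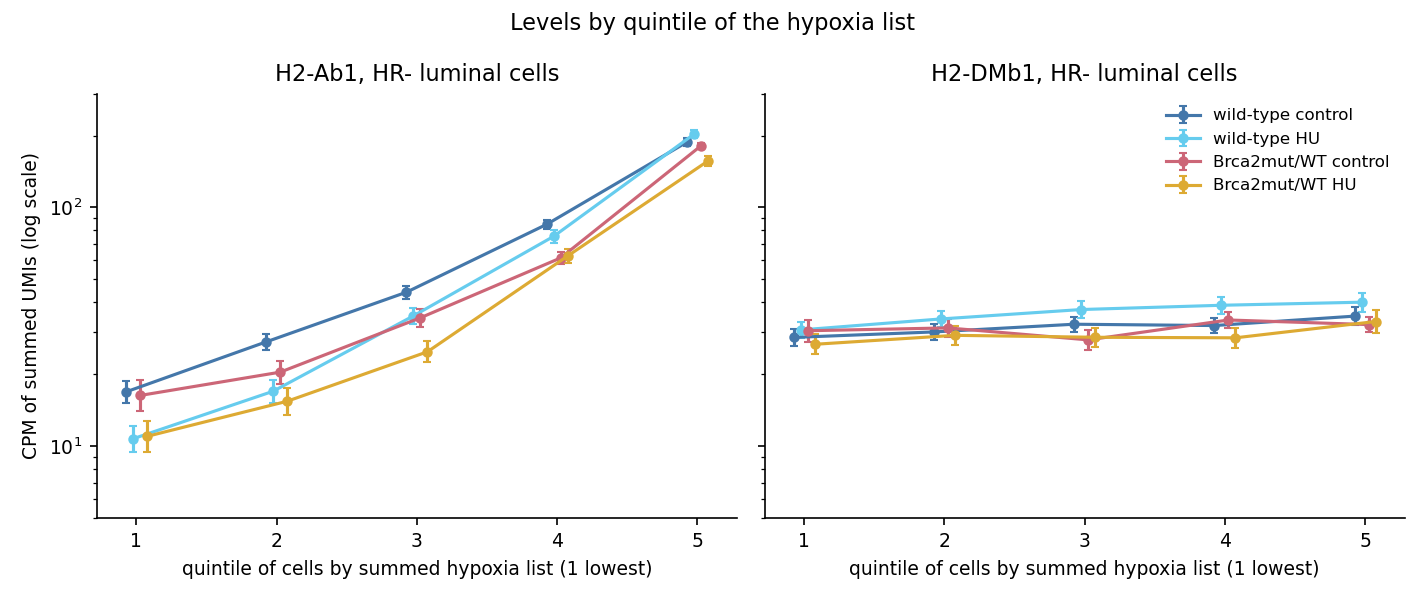
CPM (log scale) of H2-Ab1 and H2-DMb1 in HR- luminal cells by quintile of the summed CPM of 23 hypoxia genes, 1 line a library, with exact Poisson 95% intervals. H2-Ab1 goes up from 10.7 to 16.9 CPM in quintile 1 to 156.4 to 202.5 CPM in quintile 5 and H2-DMb1 stays between 26.7 and 40.1 CPM at both ends.

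The libraries differed in how their HR- luminal cells spread over these quintiles. The highest held 16.4% of the cells of wild-type control, 15.5% of wild-type HU, 31.8% of Brca2mut/WT control and 15.8% of Brca2mut/WT HU. From quintile 1 to 5 the log2 ratio of H2-Ab1 in Brca2mut/WT HU over Brca2mut/WT control was -0.57, -0.40, -0.48, 0.03 and -0.21, against -0.76 over all cells. Over wild-type control it was -0.62, -0.83, -0.83, -0.44 and -0.26, and over wild-type HU 0.03, -0.14, -0.50, -0.27 and -0.37. Between the 2 Brca2mut/WT libraries 8 of the 23 hypoxia genes were lower in HU by 1.5-fold and 0 higher, where 1.1% of all genes were lower and 0.607% higher. In Brca2mut/WT HU 7 of the 23 were lower than in wild-type control (1.18% of all genes) and 1 than in wild-type HU (0.465%), with 0 higher in both. The list was chosen after its relation to H2-Ab1 was seen in these cells, so nothing is read from these counts. The part of the hypoxia list in the library ratios was not tested further.

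Across the 16 pools the genes whose level was most like the class II sum (all members but Ciita) included Selenbp1, Prelid2, Bsg, Espn, Gm15283, 2610528A11Rik, Gsg1l, Pgf and Dusp23, with Pearson correlations of log2 CPM from 0.95 to 0.97 among 9402 genes. The correlations are a description over pools that share libraries, depth and culture. H2-Ab1 itself correlated with the sum at 0.98, a value largely fixed in advance because H2-Ab1 is the largest part of that sum. The genes most like the sum are therefore mostly genes like H2-Ab1, and do not describe the members as a group. H2-Ab1 correlated with H2-DMb1 at 0.42, with H2-DMa at 0.18 and with Ciita at -0.49. H2-DMa was at 1.93 to 3.70 CPM a pool and Ciita at 0 to 1.76 CPM. Both lay under the mean of 5 CPM asked of the ranked genes, and Ciita rests on few UMIs a pool. The 10 genes most like H2-Ab1 alone included Mgarp, Adm2, Pgf and Bnip3. The summed hypoxia list correlated with H2-Ab1 at 0.83 over all 16 pools, 0.80 over the 8 pools numbered 1 and 3, and 0.70 over the 8 numbered 2 and 4. That list was chosen after the pattern was seen in the same cells, so these 3 values are no separate finding.

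Around these genes the rest of the class II machinery was in place only in part. In HR- luminal cells 12 of the 24 pathway genes found reached 5 CPM in all 4 libraries. The promoter factors were there, with Rfxap at 36.2 to 38.8 CPM, Rfxank at 17.8 to 19.8 CPM, Nfyb at 22.3 to 23.8 CPM and Rfx5 at 5.85 to 6.59 CPM. So were the endosomal proteases Ctsl (482.8 to 559.4 CPM) and Ctsb (196.6 to 211.6 CPM) and the reductase Ifi30 (69.8 to 75.7 CPM). Ctss, the protease that trims the invariant chain in professional antigen-presenting cells, was at 1.01 to 1.19 CPM. H2-Ob and H2-Eb2 had 0 UMIs, and H2-Oa, H2-DMb2, the co-stimulators Cd80, Cd86 and Cd40, and March1 stayed under 1 CPM. Between Brca2mut/WT HU and the other libraries 0 of 12 pathway genes were higher or lower by 1.5-fold in each of the 3 comparisons. Over all genes 0.607% to 0.986% were higher and 0.465% to 1.18% lower.

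Class I genes stood far higher. H2-K1 was at 2066 to 2602 CPM, H2-D1 at 1630 to 2045 CPM and B2m at 2152 to 2653 CPM, and 0 of 8 class I genes passed 1.5-fold in any of the 3 comparisons. Their median log2 difference was 0.24 over wild-type control and 0.23 over wild-type HU, where all genes had medians of 0.06 and 0.05, and -0.04 over Brca2mut/WT control. The interferon gamma inducers and targets were mixed, with Iigp1 at 79.8 to 120.0 CPM beside Cxcl9 and Gbp4, which stayed under 1 CPM. Of the 12 interferon gamma genes tested, 0, 2 and 1 were higher in Brca2mut/WT HU than in wild-type control, wild-type HU and Brca2mut/WT control, and 0, 0 and 1 were lower. Of the 9 interferon alpha and beta genes 1, 1 and 0 were higher and 0 were lower. Over all genes so filtered, 0.986%, 0.729% and 0.607% were higher and 1.18%, 0.465% and 1.1% lower in the same 3 comparisons. With so few genes a list, nothing is read from these counts.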

How the data were processed

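Single cells of mouse mammary organoids were measured in 4 libraries, 1 per genotype and treatment. The authors aligned reads and deposited counts, whole-number UMIs per gene and cell without normalization, with 4 antibody tags that were kept out of all totals. Cell Ranger is given as 6.0.2 in the submitters' processing notes, with mm10, Seurat 4.0 and R 4.1.3, and as 6.1.1 in the file headers.

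Cells were filtered as in the study, with no doublet caller, and counts were summed per library and lineage and divided by the total (CPM). Each sum was given an exact Poisson 95% interval, each share a Clopper-Pearson one, and each ratio of 2 sums the exact conditional interval. Shares were taken after thinning cells to 5000 UMIs, and shallower cells were left out (732 of 14008 HR- luminal cells). With 1 library a group no test was made. Calls use a fold of 1.5 at 5 CPM or more. TMM factors came from edgeR 4.0.16. Calls and intervals were tried on simulated Poisson counts only (Python 3.11.15, scipy 1.17.1). The unevenness of H2-Ab1 between cells and tag pools was not simulated, so this does not cover it.

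The members, gene lists and comparisons were chosen with earlier results of these data known. Named genes are the members, the fixed lists, the 10 genes most like the class II sum over tag pools, and the 10 that differed most between positive and other cells; no cell was positive by the fixed rule, so H2-Ab1 alone was used. The hypoxia and mitosis lists, the GATTGG motif and the comparisons of lineages within pools were added after seeing the data. In the pathway and interferon lists, H2-Ea, H2-Ea-ps and Mx1 were not matched. Values of some single genes are not reported here.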

Additional observations from a re-analysis of the deposited data

Results flagged for a closer look

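H2-DMb1 moved in opposite directions with HU in the 2 genotypes: in HR- luminal cells its log2 ratio of HU over control was 0.18 in wild type and -0.12 in Brca2mut/WT, and both counting intervals left out 0. The difference between the genotypes was not tested, since each rests on 1 library.

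Among the cells that the filter removed, 1 cell of wild-type HU had 20 UMIs of H2-Eb1, more than any kept cell (6), with 0 of H2-Ab1, H2-Aa and Cd74. It had 66238 UMIs, 7189 genes, 203 UMIs of Krt8, 166 of Krt14, 2 of Cd68 and 0 of Lyz2. A removed cell of Brca2mut/WT HU had 4 UMIs of Cd74, the most among removed cells, where the highest kept cell had 6.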

How the results depend on the processing

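No member was 1.5-fold higher in Brca2mut/WT HU under another cell filter, tag rule, depth minimum, lineage cut, a Krt8 minimum or TMM factors. Without the filter on low values 1 member passed against wild-type control, 2 against wild-type HU and 1 against Brca2mut/WT control: Cd74 on 10 and 9 UMIs, Cd74 and Ciita on 10 and 5 and on 38 and 24 UMIs, and H2-Eb1 on 15 and 10 UMIs.

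The class II sum was higher in HR- luminal than basal cells in 4 libraries, in 2 with all lineage cuts at 2 times their value, and in 1 to 4 as each tag pool was left out (1 without pool 1). The share of positive HR- luminal cells was 0, and 0.157% of 14008 cells without thinning.

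The H2-Ab1 ratios of Brca2mut/WT HU over wild-type control, wild-type HU and Brca2mut/WT control changed sign in some quintiles and pools. The sign changes in quintile 1 (10.97 against 10.72 CPM) and quintile 4 (62.55 against 61.39 CPM) were between overlapping intervals. In pool 4 the change over wild-type control was also small, with 14.2 CPM inside the wild-type control interval. With no upper gene limit and under 10% mitochondrial UMIs they were, in that order, -0.67, -0.50 and -1.01. In hypoxia quintiles 1 to 5 they were -0.62, 0.034 and -0.57, then -0.83, -0.14 and -0.40, then -0.83, -0.50 and -0.48, then -0.44, -0.27 and 0.028, and then -0.26, -0.37 and -0.21. In tag pool 1 alone they were -0.69, -0.42 and -0.71, in pool 2 -2.67, -1.90 and -4.37, in pool 3 -0.057, -0.32 and -0.76, and in pool 4 0.18, 1.18 and -0.69. Leaving out each tag pool gave -0.79 to -0.28, -0.31 to -0.13 and -0.87 to -0.60, the extremes being without pools 3 and 1, without pools 4 and 3, and without pools 4 and 2. The median hypoxia difference was 0.49 in basal cells, 1.004 for cells with 3 or more H2-Ab1 UMIs, and 0.72 to 0.75 as pools were left out. The cause of these changes was not tested. These alternatives to the H2-Ab1 results were chosen after seeing the data. Of 135 alternative values 93 stayed within the limits set for a change, 38 moved and 4 changed sign. Many that stayed were counts of members higher by 1.5-fold or shares of positive cells, which could hardly change. The tally thus does not measure how firm the H2-Ab1 ratios are.

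No paired analysis was made, because each group has 1 library. Whether the control and HU libraries of a genotype share mice is not given in the labels. Pairing HU with control within genotype, as 2 pairs, was not tested. Counting error limits H2-Aa, H2-Eb1, Cd74 and Ciita.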

Other observations

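In the cells that the filter removed, H2-Ab1 stood at 33.7 CPM in wild-type control, 26.8 CPM in wild-type HU, 42.2 CPM in Brca2mut/WT control and 20.4 CPM in Brca2mut/WT HU, over all lineages. H2-DMb1 stood there at 22.3, 26.3, 25.9 and 24.1 CPM. The wild-type HU values include the 2 cells with a Ptprc UMI, which had 2 and 0 UMIs of H2-Ab1 and 0 of H2-DMb1. H2-Aa had 1, 5, 1 and 2 UMIs and the highest H2-Ab1 count of any cell was 69. Across the 16 tag pools the gene most like H2-DMb1 in HR- luminal cells was D5Ertd605e (Pearson correlation 0.85), and H2-DMb1 correlated with its partner H2-DMa at 0.49 and with Ciita at -0.64. In these pools H2-DMa was at 1.93 to 3.70 CPM and Ciita, on few UMIs, at 0 to 1.76 CPM.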
